A study of Mus musculus with 4 samples.

Results

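The embryonic miRNAs of the miR-290 and miR-302 clusters were followed in mouse lung through 7 assays: mmu-miR-290-5p, mmu-miR-291a-3p, mmu-miR-292-3p, mmu-miR-293, mmu-miR-294 and mmu-miR-295 from the first cluster and mmu-miR-302b from the second, written below without the mouse prefix. They were taken by name from the deposited table, which holds 750 miRNA assays. Right lung, perfused through the pulmonary artery, was profiled by stem-loop reverse transcription and TaqMan quantitative PCR in 4 groups with 1 library each. The adult hyperoxia group was exposed to 95% oxygen for 72 h at 2 months of age, and the adult room air group was kept in air for the same time. The neonatal hyperoxia group was exposed to 95% oxygen for 72 h from within hours of birth and was taken at day 3, and the neonatal room air group was its control in air. Dams alternated between both atmospheres. The labels give no strain, sex, genotype or number of animals per library, so differences between libraries have no replicate check.

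The miR-290 cluster of rodents, which runs to miR-295, is transcribed as a single primary transcript from which several hairpins are cut. It is the leading miRNA locus of mouse embryonic stem cells, where its members speed the passage from G1 to S phase, and it is silenced when these cells differentiate. The miR-302 cluster, which lies in an intron, is active in the epiblast and in pluripotent cells of the next stage, and in mouse it also promotes proliferation of early lung endoderm progenitors. Most of these miRNAs share a seed, the bases that pair with target messengers.

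The mature sequences are shown because the members fall into seed groups. They come from RefSeq (GRCm38.p6, plus strand), which held 6 of the 7. miR-292-3p is named without a sequence. Capitals mark the seed, bases 2 to 8 from the 5′ end.
mmu-miR-290-5p, chr7:3218639-3218660: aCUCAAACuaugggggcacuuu
mmu-miR-291a-3p, chr7:3218968-3218989: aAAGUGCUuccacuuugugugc
mmu-miR-293, chr7:3220390-3220411: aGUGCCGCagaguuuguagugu
mmu-miR-294, chr7:3220691-3220712: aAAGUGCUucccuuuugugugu
mmu-miR-295, chr7:3220815-3220837: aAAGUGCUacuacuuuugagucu
mmu-miR-302b, chr3:127545275-127545297: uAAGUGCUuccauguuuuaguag

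miR-291a-3p, miR-294, miR-295 and miR-302b carried the seed AAGUGCU, which 5 of 1738 mature mouse miRNAs in the table have. The remaining one there is miR-302d, and miR-302a, like miR-292-3p, is named without a sequence. miR-293 had a seed found in no other mature miRNA of the table, and miR-290-5p, the member cut from the 5′ arm, had a seed of 3 miRNAs. miR-291a-3p and miR-294 were the most alike members, with the same base at 19 of 22 positions counted from the 5′ end and at 5 of the last 6.

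At least 1 assay of each locus was read in all lungs, and most assays of these loci were not. A threshold cycle (Ct) falls by 1 for each doubling of template at perfect amplification. A Ct of 35 or below counted as detected, and a Ct of 40 means that the well crossed no threshold. In each of the 4 libraries 6 of the 7 members were detected, and these 6 are the same assays throughout. Altogether 468, 468, 507 and 477 assays were detected in adult hyperoxia, adult room air, neonatal hyperoxia and neonatal room air, with a median detected Ct of 24.2, 24.2, 24.0 and 24.2. The negative control, a plant miRNA (ath-miR159a), crossed in 0 wells. The 6 detected members sit on the first of 2 cards, outside its row L, whose Ct in the adult room air library correlated with the mean of the other libraries at r = 0.302 (a description). The lung label went with its markers: all 6 epithelial miRNAs (the miR-200 family and miR-375) lay at a Ct of 14.3 to 19.7, and both arms of miR-126, an endothelial miRNA, at 9.96 to 14.2. Markers of leukocytes (4 of 4), red cells (2 of 2) and muscle (4 of 4) were detected in all libraries too. So was miR-9 of brain, at 25.3 to 26.5. miR-124, also of brain, had a Ct of 26.3 in adult hyperoxia, 29.8 in adult room air, 29.8 in neonatal hyperoxia and 40 in neonatal room air. miR-122 of liver had a Ct of 28.3 in adult hyperoxia, 32.8 in adult room air, 27.6 in neonatal hyperoxia and 36.0 in neonatal room air. Markers of tissues other than lung were thus read in most libraries. In bulk lung, fewer cells of a type and less RNA per cell cannot be told apart.

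mmu-miR-292-3p was the earliest member in all 4 libraries. Its Ct was 25.6 in adult hyperoxia, 26.4 in adult room air, 24.7 in neonatal hyperoxia and 25.6 in neonatal room air. Between 55.6% and 65.2% of the detected assays of a library crossed before it, so by this assay it stood near the middle of the detected ones. A second assay of miR-292-3p, described below, was past the limit of 35 in the adults. Its Ct was 35.2 in adult hyperoxia and 40 in adult room air.

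mmu-miR-295, which shares its seed with the ES cell miRNA miR-294, followed closely. Its Ct was 26.8 in adult hyperoxia, 27.3 in adult room air, 25.1 in neonatal hyperoxia and 26.6 in neonatal room air. It was second in each library, 0.336 to 1.185 cycles after miR-292-3p. Both assays sit on the same card and were read in 1 well per library, so the error of that gap was not measured.

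mmu-miR-293, the member with a seed of its own, came later. Its Ct was 29.3 in adult hyperoxia, 30.7 in adult room air, 29.7 in neonatal hyperoxia and 31.2 in neonatal room air. Its level against snoRNA202 varied least of the 6 detected members, over 1.05 log2, against 1.72 to 4.00 log2 for the others.

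mmu-miR-291a-3p, one of the miRNAs that shorten G1 in mouse embryonic stem cells, had a Ct of 29.6 in adult hyperoxia, 32.7 in adult room air, 29.3 in neonatal hyperoxia and 31.0 in neonatal room air. Both hyperoxia libraries were therefore earlier than both room air libraries, as they were for miR-293. How many of all assays show this order was not counted.

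mmu-miR-294, the member most used to mark the locus in embryonic stem cells, had a Ct of 29.1 in adult hyperoxia, 30.3 in adult room air, 31.1 in neonatal hyperoxia and 34.3 in neonatal room air. It was the last detected member in both neonatal libraries and the third in both adult ones. In neonatal room air 99.0% of the detected assays crossed before it, against 82.1% in adult hyperoxia.

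mmu-miR-302b, the guide strand of the first hairpin of its cluster, had a Ct of 33.7 in adult hyperoxia, 33.6 in adult room air, 30.8 in neonatal hyperoxia and 31.6 in neonatal room air. The adult values lie close to the limit of 35. miR-290-5p was not detected at that limit: it stood at 40 in adult hyperoxia, adult room air and neonatal room air, and crossed at 36.9 in neonatal hyperoxia.

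**Figure D1:**
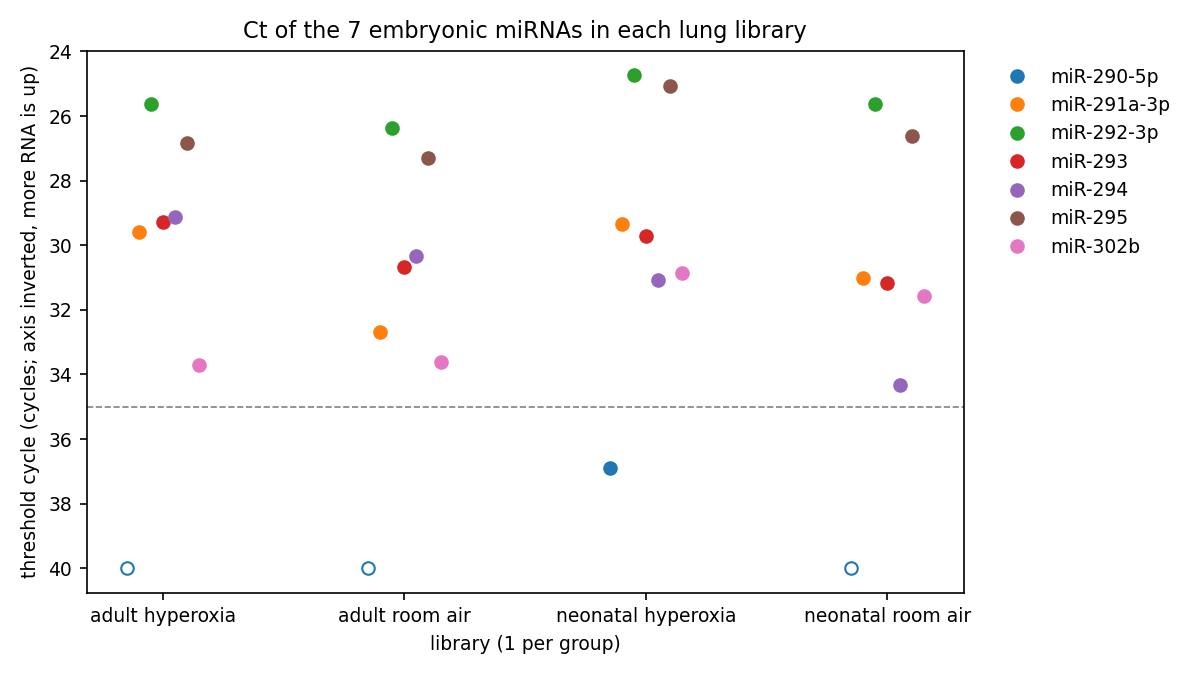
Threshold cycle of each member (y axis, in cycles, inverted so that more RNA is higher) in the 4 libraries (x axis). Filled points crossed the threshold, open points at 40 did not, and the dashed line is the detection limit of 35. miR-292-3p and miR-295 lie between 24.7 and 27.3, and miR-290-5p lies below the line throughout.

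The cluster was read unevenly along its length and by arm. The miR-290 cluster holds 7 hairpins within 2216 bases of chromosome 7 (chr7:3218626-3220841, GRCm38.p6). Of the 7 assays for 3′ arms, 5 were detected in all 4 libraries, and those of miR-290 and miR-291b crossed in none. Of the 7 assays for 5′ arms, 0 were detected. Among these, 5 crossed in no library and 2 crossed late in 1 library each, miR-290-5p as given above and miR-295* at 38.8 in adult room air. The 5 detected assays sit on the first card. Those for 5′ arms sit on the second card, except that of miR-291b. Arm and card can therefore hardly be told apart. Position did not order the readings: miR-292-3p and miR-295, the earliest, lie 563 and 2147 bases from the start of the first hairpin, and miR-293 and miR-294, both later, lie between them at 1717 and 2015 bases.

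The hairpins of miR-295 and miR-302b are shown as RefSeq gives them, because in each the 3′ arm was read in all 4 libraries and the 5′ arm was detected in none. In both, the assay for the 3′ arm sits on the first card and that for the 5′ arm on the second. Arm and card cannot be told apart here. Capitals mark both mature arms.
mmu-miR-295, chr7:3220773-3220841: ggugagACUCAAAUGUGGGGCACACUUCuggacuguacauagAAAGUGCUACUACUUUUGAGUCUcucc
mmu-miR-302b, chr3:127545228-127545301: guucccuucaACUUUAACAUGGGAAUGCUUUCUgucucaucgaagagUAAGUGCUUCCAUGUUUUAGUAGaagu

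**Figure D2:**
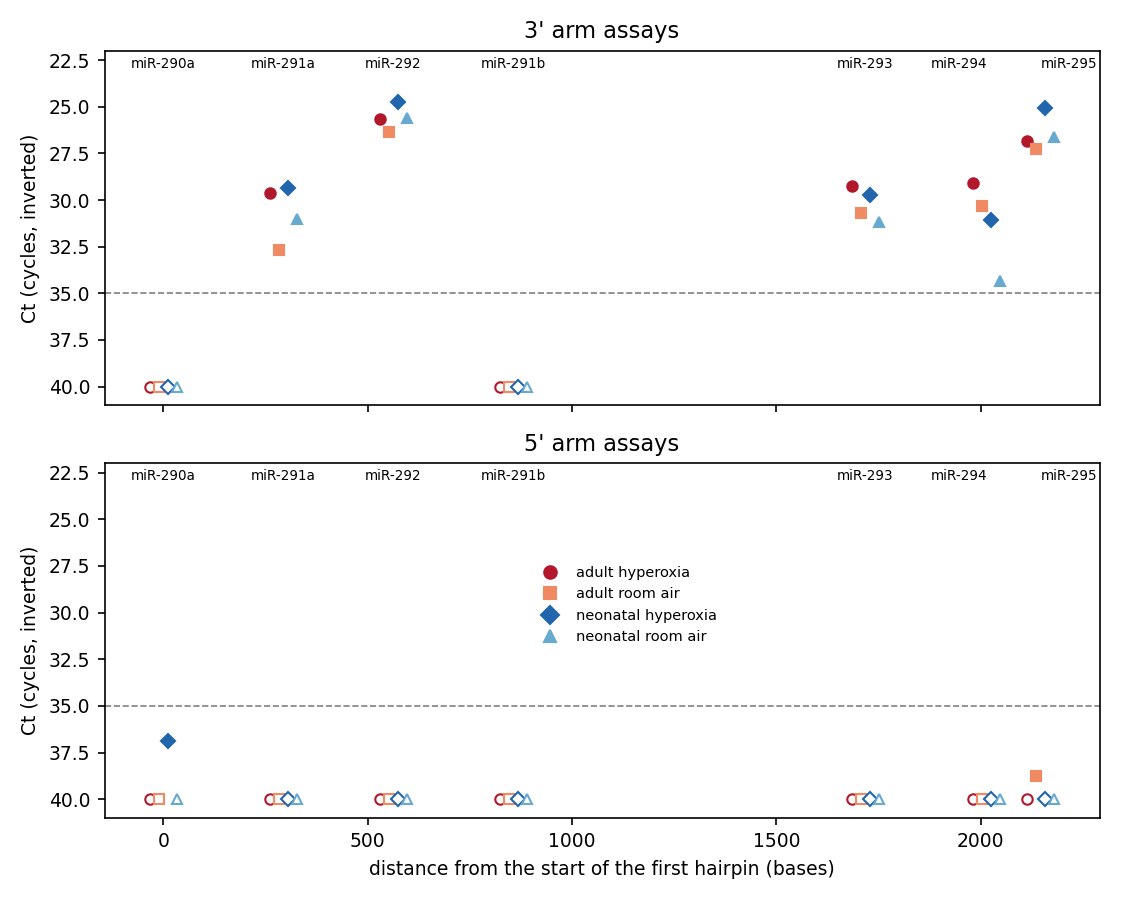
Ct (y axis, cycles, inverted) of the assays for the 3′ arm (upper panel) and the 5′ arm (lower panel) of each hairpin of the miR-290 cluster, at the hairpin's distance in bases from the first hairpin (x axis), with a marker per library. Open markers at 40 crossed no threshold. 5 of 7 assays for the 3′ arm lie above the dashed limit of 35 in all 4 libraries, and 0 of 7 for the 5′ arm do.

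Among the members of the cluster that crossed, the highest and lowest Ct lay 3.96 cycles apart in adult hyperoxia, 6.30 in adult room air, 12.1 in neonatal hyperoxia and 8.71 in neonatal room air. The value of neonatal hyperoxia includes the late crossing of miR-290-5p and was 6.34 without it. Assays differ in efficiency, so a gap between them is not a ratio of molecules. Taken at equal and perfect amplification, miR-292-3p and miR-295 together made up 85.9% of the summed signal of the 6 cluster members in adult hyperoxia, 92.3% in adult room air, 95.4% in neonatal hyperoxia and 96.9% in neonatal room air. miR-294 made up 5.39% in adult hyperoxia, 3.91% in adult room air, 0.656% in neonatal hyperoxia and 0.154% in neonatal room air.

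Uneven reading was also seen in other polycistrons. The 6 assays of miR-17-92, a cluster of proliferating tissue, spanned 9.45 cycles in adult hyperoxia, 10.2 in adult room air, 8.47 in neonatal hyperoxia and 8.36 in neonatal room air. By contrast, the 3 assays of miR-106b-25 spanned 1.74 to 2.41 cycles and the 3 of the epithelial miR-200b cluster 0.283 to 1.98. The assays of the miR-322 cluster that crossed spanned 11.6, 7.08, 20.9 and 19.0 cycles in the same order of libraries. Without wells of row L, a choice made after seeing the data, the first of these was 6.36. These ranges grow with the number of assays, and miR-17-92 has 6 like the miR-290 cluster. With wells at 40 kept, so that 6 assays stand on each side, the miR-290 members spanned 14.4 cycles in adult hyperoxia, 13.6 in adult room air, 12.1 in neonatal hyperoxia and 14.4 in neonatal room air, more than miR-17-92 in every library. With miR-290-5p left out, the 5 detected members spanned less than the 6 assays of miR-17-92 in adult hyperoxia, adult room air and neonatal hyperoxia, and more in neonatal room air, so the order of both clusters rests on that assay in 3 libraries.

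**Figure D3:**
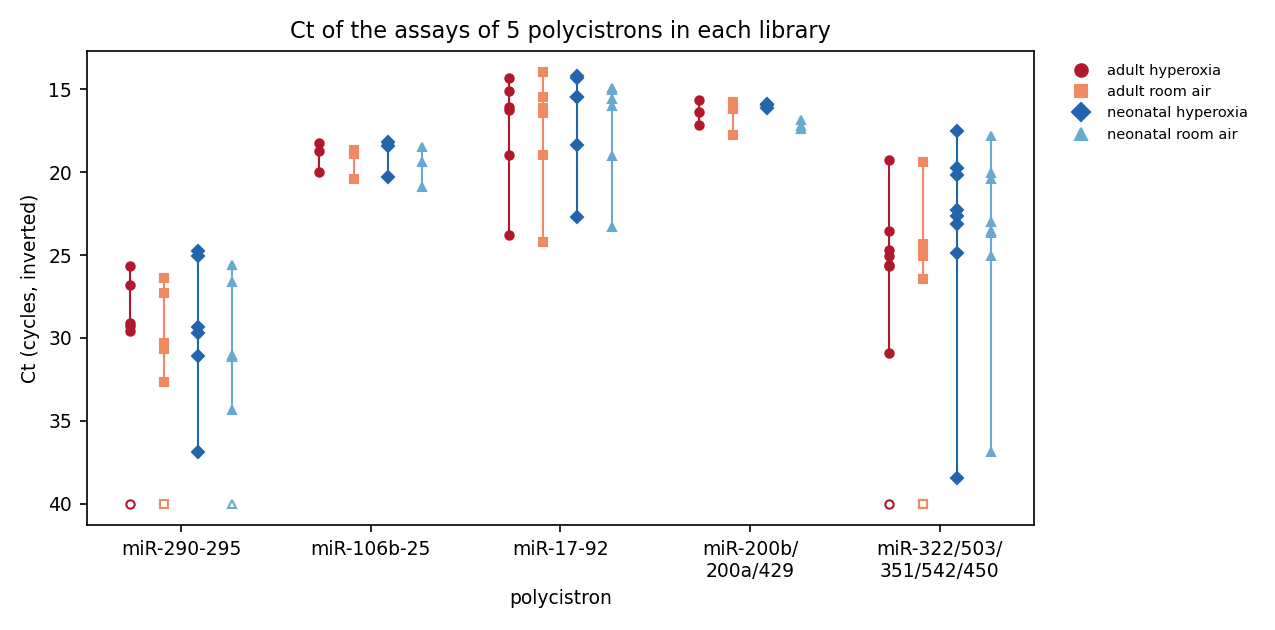
Ct of single assays (points; y axis in cycles, inverted) of 5 polycistrons (x axis), with a line from the lowest to the highest crossing in each library. Open points at 40 crossed no threshold. The miR-290 assays that crossed spread over 3.96 to 12.1 cycles, and those of miR-17-92 over 8.36 to 10.2.

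The 20 other assays named for these loci were mostly silent. Of them 14 crossed in no library, 3 crossed after 35 only and 3 were detected in at least 1 library. miR-302a, from the same transcript as miR-302b, had a Ct of 34.3 in adult hyperoxia, 35.9 in adult room air, 40 in neonatal hyperoxia and 36.8 in neonatal room air. miR-367, the member of that transcript with an unrelated seed, had a Ct of 34.6 in adult hyperoxia, 40 in adult room air, 37.9 in neonatal hyperoxia and 37.1 in neonatal room air. Both were thus detected in adult hyperoxia alone, within 1 cycle of the limit. miR-302c crossed in no library, and miR-302d crossed at 39.8 in adult hyperoxia.

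The third was a second assay of miR-292-3p, which the deposited table lists under its rat name and which sits on the second card. Its Ct was 35.2 in adult hyperoxia, 40 in adult room air, 27.3 in neonatal hyperoxia and 29.6 in neonatal room air. It was later than the mouse-named assay in every library, by 9.51 cycles in adult hyperoxia, 2.58 in neonatal hyperoxia and 3.97 in neonatal room air. Both assays read less in adults, but the sizes differed: with a Ct of 35 as the bound for the adult libraries, the rat-named assay was at or below -8.52 log2 in hyperoxia and -7.30 in room air, where the mouse-named assay was at -1.59 and -1.38. The adult room air bound is -7.07 against the reference RNA of its own card. The other rat-named assays were not detected. That of miR-291a-3p crossed at 37.4 in adult room air and 35.5 in neonatal hyperoxia. Those of miR-290, miR-293 and miR-294 stood at 40 in all 4 libraries, where the mouse-named assays of miR-293 and miR-294 were detected. The deposited assay names of the rat-named assays for miR-292-3p and miR-291a-3p are mouse names that give the 3′ arm. Those for miR-290, miR-293 and miR-294 give no arm, so these may read another arm than the mouse-named ones. No sequence was compared for the rat-named assays.

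The members did not all stand on the same side between ages. For comparisons, levels are log2 values against snoRNA202, obtained by turning the sign of the deposited delta Ct, and a difference of 1 log2 unit is 2-fold. In room air, miR-294 was 3.39 log2 higher in the adult, whereas miR-302b (-2.66), miR-291a-3p (-2.28), miR-292-3p (-1.38) and miR-295 (-1.31) were at least 2-fold lower and miR-293 was at -0.14. The technical SD of this difference, from 4 control RNAs read on both cards, was 0.65 log2, so miR-293 lay within it. Of the 6 measured members 4 were at least 2-fold lower, where 44.1% of all 435 measured assays were, and 1 was at least 2-fold higher, where 15.9% were. In either direction 60.0% of all assays differed 2-fold, and 72.8% of the 81 with a mean Ct above 28. A single member lay above 0, as did 36.6% of all assays. The members' median was -1.34, beside -0.72 over all assays. Among markers of other tissues, miR-124 and miR-122 were detected in adult room air and not in neonatal room air. In the same comparison miR-9 was at 0.44 log2. In muscle miR-206 was at -3.36 log2, miR-133a at 0.84, miR-1 at 0.10 and miR-208a at 0.08. Their part was not tested.

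In hyperoxia the same members lay on the same sides of 0, with a technical SD of 0.95 log2. miR-294 was 1.28 log2 higher in the adult. miR-302b (-3.54), miR-295 (-2.44) and miR-292-3p (-1.59) were at least 2-fold lower, while miR-291a-3p was at -0.96 and miR-293 at -0.24. The 3 members that were 2-fold lower compare with 49.3% of 450 assays, and the 1 that was higher with 10.9%. In either direction the share over all assays was 60.2%, and 69.0% among 84 assays with a mean Ct above 28. Of all assays 28.2% lay above 0. The median was -1.28 for the members and -0.98 over all assays. In the same comparison miR-124 was at 2.79 log2, miR-122 at -1.37 and the 4 muscle markers between -2.75 and -0.89, and their part was not tested either. In hyperoxia the members' share of lower readings was thus near that of all assays. miR-290-5p could not be compared in any pair.

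**Figure D4:**
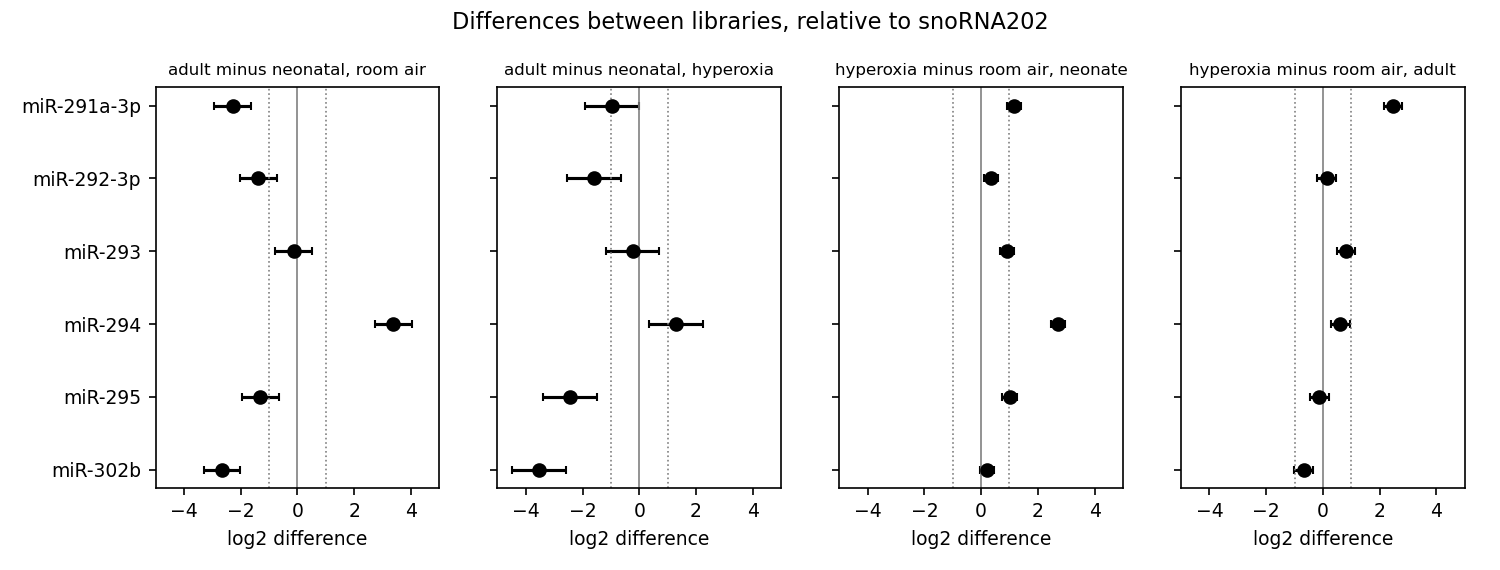
Log2 difference in level relative to snoRNA202 (x axis) for the 6 measured members (y axis) in 4 comparisons of 2 libraries; bars are the technical SD from 4 control RNAs, and dotted lines mark 2-fold. miR-294 is the member above 0 in both age comparisons, at 3.39 and 1.28.

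limma was fitted with age and oxygen as additive terms to the 426 assays detected in every library, with 1 residual degree of freedom per assay, and called 2 of the 6 members for age. In adults miR-302b fell by 3.10 ± 0.37 log2 (estimate ± SE; limma's adjusted p = 0.0315, Benjamini-Hochberg), and its level was lower in both adult libraries than in both neonatal ones. miR-292-3p fell by 1.48 ± 0.25 (limma, adjusted p = 0.0485), again without overlap of the ages. The ages did not overlap for miR-294 and miR-295 either, which were not called. The lack of overlap thus does not set the called members apart, and its share over all assays was not counted. The call of miR-302b was lost with an intensity trend in the model (limma, adjusted p = 0.0971), and that of miR-292-3p at a Ct limit of 38 (limma, adjusted p = 0.0591). The model called 27.9% of all assays lower and 4.46% higher, 32.4% in either direction. At an unadjusted p under 0.05 it was 3 of the 6 members, where 49.5% of all assays passed. Not called were miR-295 at -1.87 ± 0.43 (limma, adjusted p = 0.0725), miR-291a-3p at -1.62 ± 0.48 (adjusted p = 0.105), miR-294 at 2.33 ± 0.70 (adjusted p = 0.106) and miR-293 at -0.19 ± 0.24 (adjusted p = 0.578). With 1 library per group, no spread within a group enters these p-values. The residual of each assay is the extent to which its oxygen difference was not the same in adults and neonates. The additive fit counts this as error, so a real difference of that kind cannot be told from noise. The labels do not say that libraries come from separate animals, so this error may also be technical.

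The direction with age rested on the reference RNA for 4 of the 6. Over all assays the median age difference was -0.88 log2 with the deposited values and ranged up to 1.19 with U6. miR-302b was below 0 under all 6 references tried, from -3.10 to -0.29, and was called lower under 5 of them. miR-294 was above 0 under all 6, from 2.33 to 5.15, and was called higher under 4. miR-291a-3p, miR-292-3p, miR-293 and miR-295 lay on both sides of 0. miR-292-3p was called lower under 2 references and higher under U6, at 1.33. miR-293 was called higher under 2 references, at 2.63 with U6 and at 1.22 with each card centred on its median. Relative to the median of all assays under the same reference, miR-294 lay at 2.87 to 3.95 log2 and miR-302b at -2.56 to -1.48.

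**Figure D5:**
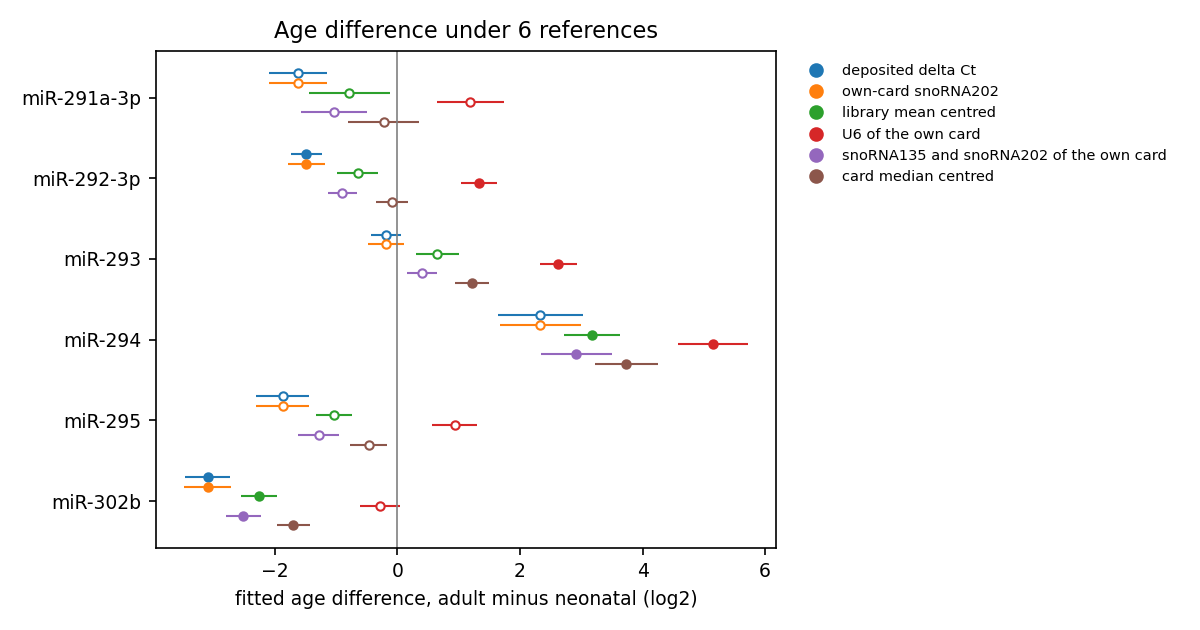
Fitted age difference, adult minus neonatal (x axis, log2, bars are the SE), of the 6 fitted members (y axis) under 6 references (colours). Filled points passed an adjusted p of 0.05. All 6 points of miR-294 lie above 0 and all 6 of miR-302b below it.

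Gaps between members on the first card do not depend on the reference. The Ct of miR-295 minus that of miR-294 was -2.28 in adult hyperoxia and -3.03 in adult room air, against -6.01 in neonatal hyperoxia and -7.72 in neonatal room air. The adult and neonatal values did not overlap. By these readings miR-294 was closer to miR-295 in adult lung. Both are cut from the same transcript, their hairpins starting 132 bases apart. In neonatal room air, gaps to miR-294 rest on 1 well at a Ct of 34.3, near the limit of 35. This well is also the low side of the miR-294 age difference in room air. The part of this single well was not tested. The gap between miR-302b and miR-294 moved most of the 15 pairs of members, over 7.33 cycles. It was 4.59 in adult hyperoxia and 3.30 in adult room air, against -0.238 in neonatal hyperoxia and -2.74 in neonatal room air. The smallest movement, over 0.849 cycles, was that of miR-295 against miR-292-3p, and 9.77% of the 27730 pairs of first-card assays moved less. Adults and neonates did not overlap in 11 of the 15 pairs. Over all those pairs of assays 80.6% did not overlap, so the members' count is near that of any 2 assays. The median movement was 2.60 cycles for members and 2.54 over all pairs.

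Hyperoxia in the neonate went with higher readings of the cluster. miR-294 was 2.72 log2 higher in neonatal hyperoxia than in neonatal room air, miR-291a-3p 1.16 and miR-295 1.01. The low side of the miR-294 difference is 1 well at a Ct of 34.3, near the limit of 35. Below 2-fold were miR-293 at 0.91, miR-292-3p at 0.35 and miR-302b at 0.21. The technical SD was 0.26 log2, and miR-302b lay within it. Of the 6 members 3 were at least 2-fold higher, where 13.6% of 469 assays were, and 0 were 2-fold lower, where 8.53% were. In either direction 22.2% of all assays differed 2-fold. Among assays with a mean Ct above 28, such a difference was more frequent, at 50.5% of 93, and miR-294 and miR-291a-3p belong to them. All 6 lay above 0, as did 58.6% of all assays. Their median was 0.96, beside 0.13 over all assays. The second assay of miR-292-3p was 1.56 log2 higher. Markers of other tissues were higher in the same pair of libraries: miR-122 of liver and miR-124 of brain were detected in neonatal hyperoxia and not in neonatal room air, and in muscle miR-208a was at 1.82 log2, miR-133a at 1.29, miR-1 at 0.83 and miR-206 at -1.03. miR-9 was at -0.30, and the 6 epithelial markers lay between 0.07 and 1.21. Their part in the members' differences was not tested.

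In the adult, miR-291a-3p differed most between atmospheres. It was 2.47 log2 higher in adult hyperoxia than in adult room air, with a technical SD of 0.33. miR-293 was at 0.81, miR-294 at 0.61, miR-292-3p at 0.13, miR-295 at -0.13 and miR-302b at -0.67. miR-292-3p and miR-295 lay within the technical SD. Of the 6 members 1 was at least 2-fold higher, where 5.13% of 448 assays were, and 0 were 2-fold lower, where 8.04% were. In either direction 13.2% of all assays differed 2-fold. Of the members 4 lay above 0, as did 38.2% of all assays. Among 95 assays with a mean Ct above 28, which include miR-291a-3p, 40% differed 2-fold in either direction. The members' median was 0.37, beside -0.14 over all assays. miR-291a-3p in adult room air, at a Ct of 32.7, is the low side of both this difference and the age difference in room air, and the part of this single library was not tested. In the same comparison miR-122 was 3.95 log2 and miR-124 2.91 log2 higher in adult hyperoxia, more than miR-291a-3p, while miR-9 was at -0.45 and the 4 muscle markers lay between -1.004 and -0.16. The part of these markers was not tested either.

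The additive model called 0 of the 6 members for oxygen (limma), and 2 had an unadjusted p under 0.05. It also called 0.0% of the 426 assays in either direction, and 3.05% had an unadjusted p under 0.05. miR-291a-3p was at 1.82 ± 0.48 log2 (estimate ± SE; limma's adjusted p = 0.963), miR-294 at 1.66 ± 0.70 and miR-293 at 0.86 ± 0.24. miR-295 was at 0.44 ± 0.43, miR-292-3p at 0.24 ± 0.25 and miR-302b at -0.23 ± 0.37. The adjusted p of limma was 0.963 for each of these but miR-302b, where it was 0.966.

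The closest relatives by seed are abundant lung miRNAs. miR-17, miR-20a, miR-20b, miR-93, miR-106a and miR-106b carry AAAGUGC, the embryonic seed shifted by 1 base, as in miR-17: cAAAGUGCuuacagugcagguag (chr14:115043684-115043706, seed in capitals). With miR-18a, whose seed is close to it, these 7 had a Ct of 15.1 to 23.8 in adult hyperoxia, 15.3 to 24.2 in adult room air, 13.995 to 22.7 in neonatal hyperoxia and 14.9 to 23.3 in neonatal room air. All members lay later than these highest values in every library. In the adult 5 of the 7 relatives were at least 2-fold lower in room air, where 44.1% of all measured assays were. In hyperoxia 5 were, beside 49.3% of all. miR-18a was the one called for age (-1.64 log2; limma, adjusted p = 0.0423), where the model called 27.9% of all assays lower. After hyperoxia 0 of 7 differed 2-fold in the neonate, with a range of -0.42 to 0.40 log2, and 0 of 7 in the adult, with a range of -0.51 to -0.15. Over all measured assays 22.2% differed 2-fold in the neonate and 13.2% in the adult.

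Likeness of profile was the Euclidean distance over the 4 libraries between levels centred on each assay's mean, among 425 other assays. With 4 points it is a description. miR-302b lay nearest to miR-337-5p (0.28 log2), miR-204 (0.29) and miR-214 (0.35), and miR-295 to miR-331-5p (0.10), miR-125a-5p (0.21) and rat-named miR-214 (0.27). miR-292-3p lay nearest to miR-1897-5p (0.12), miR-450a-5p (0.12) and miR-1930 (0.19), and miR-293 to miR-219 (0.17), rat-named miR-146b (0.41) and miR-1953 (0.49). For miR-294 the nearest were rat-named miR-489 (0.85), miR-125b-3p (0.91) and miR-29c* (0.93), and for miR-291a-3p miR-1944 (0.67), rat-named miR-743a (1.36) and miR-669n (1.45). No member was among the 3 nearest of another. The closest pair, miR-295 and miR-292-3p, was 0.63 log2 apart, with miR-292-3p at rank 29 for miR-295 and miR-295 at rank 55 for miR-292-3p.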

How the data were processed

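Per the labels' protocols, Megaplex primers (sets A and B) served for reverse transcription of total RNA, followed by preamplification and TaqMan quantitative PCR. Each of the 4 libraries covers 2 cards of 384 wells. The authors deposited log2-scale threshold cycles (Ct) and delta Ct, the Ct minus that of snoRNA202, per the file headers. The software and its threshold settings were not given in the sources used here. Ct values were identical in both deposited tables. The adult room air library sets 384 second-card wells against the first card's snoRNA202, and 1 first-card well, no member, against the second card's. The assay gives no read depth, and Ct stands in its place.

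Levels are the deposited delta Ct with the sign turned. Assays were compared where Ct was 35 or below in both libraries and counted at 1 log2 unit. The technical SD is the root mean square, over U6, snoRNA135, U87 and Y1, of each RNA's difference on the first card minus that on the second, over root 2. limma 3.58.1 (R 4.3.3, lmFit and eBayes) was fitted to 426 assays and adjusted over all of them at 0.05, after a test on simulated data. Alternatives were 5 other references, Ct limits of 32 and 38, an intensity trend and single-factor models. Named were all members, detected assays of their loci, seed relatives and the 3 nearest profiles. Members and lists were chosen with earlier results of these data known. Figures used matplotlib 3.10.9.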

Additional observations from a re-analysis of the deposited data

Results flagged for a closer look

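The hyperoxia difference of miR-295 had opposite signs at both ages, at 1.01 log2 in the neonate and -0.13 in the adult, and so did that of miR-302b, at 0.21 in the neonate and -0.67 in the adult. The adult value of miR-295 lay within the technical SD of 0.33 log2, and the neonatal value of miR-302b within that of 0.26. The difference between ages was not tested, since each value rests on 1 library per group.

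Several assays crossed after the limit of 35 in wells that entered no comparison, whereas the plant control crossed in none. These are miR-290-5p at 36.9 in neonatal hyperoxia, miR-302a at 35.9 in adult room air and 36.8 in neonatal room air, miR-367 at 37.9 in neonatal hyperoxia and 37.1 in neonatal room air, miR-302d at 39.8 in adult hyperoxia, miR-295* at 38.8 in adult room air, and rat-named miR-291a-3p at 37.4 in adult room air and 35.5 in neonatal hyperoxia.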

How the results depend on the processing

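At a Ct limit of 32, 4 to 6 members were detected per library, and at 38, 6 or 7. The 5 members 2-fold apart with age in room air became 3 with mean centring, 3 with snoRNA135 and snoRNA202, and 2 at a Ct limit of 32, while the total in hyperoxia stayed within 1.5 times. Its split of 1 higher and 3 lower did not: it was 4 higher and 0 lower with U6, 2 and 2 with the library mean, and 2 higher and 1 lower with card medians. In room air 1 higher and 4 lower became 4 higher and 0 lower with U6, and 2 and 2 with card medians. The room air age median turned to 1.31 log2 with U6, and the hyperoxia one to 1.70 with U6 and 0.39 with each card centred. The 3 members apart in neonatal hyperoxia became 1 with the library mean and 1 with card medians as reference. The 1 apart in adult hyperoxia became 3 when each library was centred on its mean, 2 each with U6, the pair of snoRNAs and card medians, and 0 at a Ct limit of 32. The 2 age calls became 1 at a Ct limit of 32, 1 at 38, where miR-292-3p was lost (limma, adjusted p = 0.0591), and 1 with an intensity trend, where miR-302b was lost (limma, adjusted p = 0.0971). With age alone in the model there were 3, all lower. The 2 calls of the main fit were both lower, but other references changed the direction. With U6 the calls were 3 higher and 0 lower, and with card medians 2 higher and 1 lower. With the library mean, and with the pair of snoRNAs, they were 1 higher and 1 lower. With U6 the age effects of miR-291a-3p, miR-292-3p, miR-293 and miR-295 turned to 1.19, 1.33, 2.63 and 0.94. That of miR-293 was also above 0 with the library mean (0.65), the pair of snoRNAs (0.40) and card medians (1.22). The oxygen effect of miR-302b was 0.019 with mean centring, and 0 members were called for oxygen under any alternative (limma). With members at 40 kept, the cluster's Ct range was 14.4 cycles in adult hyperoxia, 13.6 in adult room air and 14.4 in neonatal room air. In neonatal hyperoxia it was 6.34 without miR-290-5p and 11.1 on delta Ct. The cause of these shifts was not tested. No paired analysis was possible because each group has 1 library, and leaving out a library leaves no residual degree of freedom. Late Ct values limit the precision of miR-291a-3p, miR-293, miR-294 and miR-302b, which had no repeat wells.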
